A study of Mus musculus with 60 samples.

Results

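The genes described here are 9 genes of myelin and of mature oligodendrocytes: Mbp, Mobp, Mal, Mag, Mog, Opalin, Cnp, Ugt8a and Aspa. They were chosen by name, as the 9 listed rows among the 24508 gene symbols of the expression table, and all 9 had a mean above 0.5 RPKM (reads per kilobase of transcript, scaled for depth), the minimum for a test. RNA-seq of hippocampus was made from 9 wild-type (WT) and 9 R6/1 mice, all 30 weeks old and of a mixed CBA and C57BL/6 strain (50% each). R6/1 mice model Huntington's disease: they have a transgene for exon 1 of human huntingtin whose CAG repeat is expanded, and keep their own mouse huntingtin genes. The labels call the 9 libraries of a genotype independent biological replicates, and the deposited lamin B1 domain lists hold 1 list per genotype. Genes that mark the pyramidal and granule cell layers of the hippocampus (Prox1, Wfs1, Grik4 and Neurod6) were present in every library, with the lowest value at 8.77 RPKM. Their levels were not alike in the genotypes. Wfs1 ranged from 32.4 to 62.5 RPKM in WT and from 12.1 to 14.7 in R6/1, and Neurod6 from 79 to 102 and from 25 to 33.8. The ranges of Prox1 and Grik4 overlapped.

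Oligodendrocytes wrap axons in layers of membrane. Myelin basic protein holds the membrane layers together as compact myelin, adhesion molecules such as Mag and Mog sit on the inner and outer surfaces, and Cnp keeps cytoplasmic channels open between the layers. Ugt8a makes galactosylceramide, the main glycolipid of myelin, and Aspa splits N-acetylaspartate from neurons into acetate and aspartate, with the acetate available for lipid synthesis.

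The libraries held between 12299434 and 16736544 reads on genes, recovered from the deposited values, and the reads behind a member ranged from 54 (Opalin, an R6/1 library) to 43024 (Mbp, a WT library). Correlations between libraries over all tested genes lay between 0.969 and 0.991. Choroid plexus markers differed widely between libraries of each genotype, summing to 25.7 to 1075 RPKM in WT libraries and 39.0 to 1741 RPKM in R6/1 libraries. The summed level of 7 thalamus markers was 112 RPKM in WT replicate 6 and had a median of 37.3 RPKM in WT, against a range of 23.1 to 35.6 RPKM in R6/1. Markers of Schwann cells, which make myelin in peripheral nerve, summed to at most 4.74 RPKM in any library, and 1 of them, Egr2, alone reached 4.16 RPKM.

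In R6/1 hippocampus, 7 of the 9 genes were lower than in WT and 0 were higher, by limma's test with an adjusted p under 0.05. Of all 14446 genes tested, 48.3% were called, 23.5% lower and 24.8% higher. The median log2 fold change of the 9 genes was -0.39, beside 0.0036 over all genes tested. Opalin fell the most in this set, followed by Ugt8a, Aspa and Mbp, while Cnp and Mobp did not pass the test. No member separated the genotypes completely, a pattern that 11.9% of the tested genes had in either direction. The authors' deposited table of the same comparison also calls 7 of the 9 lower, where 20.4% of the genes with an adjusted p are called lower. In bulk tissue, fewer oligodendrocytes and less RNA of these genes per oligodendrocyte cannot be told apart. Fold changes were computed from log2(RPKM + 0.5), and the added 0.5 makes the change of a low gene look smaller than it is.

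**Figure D1:**
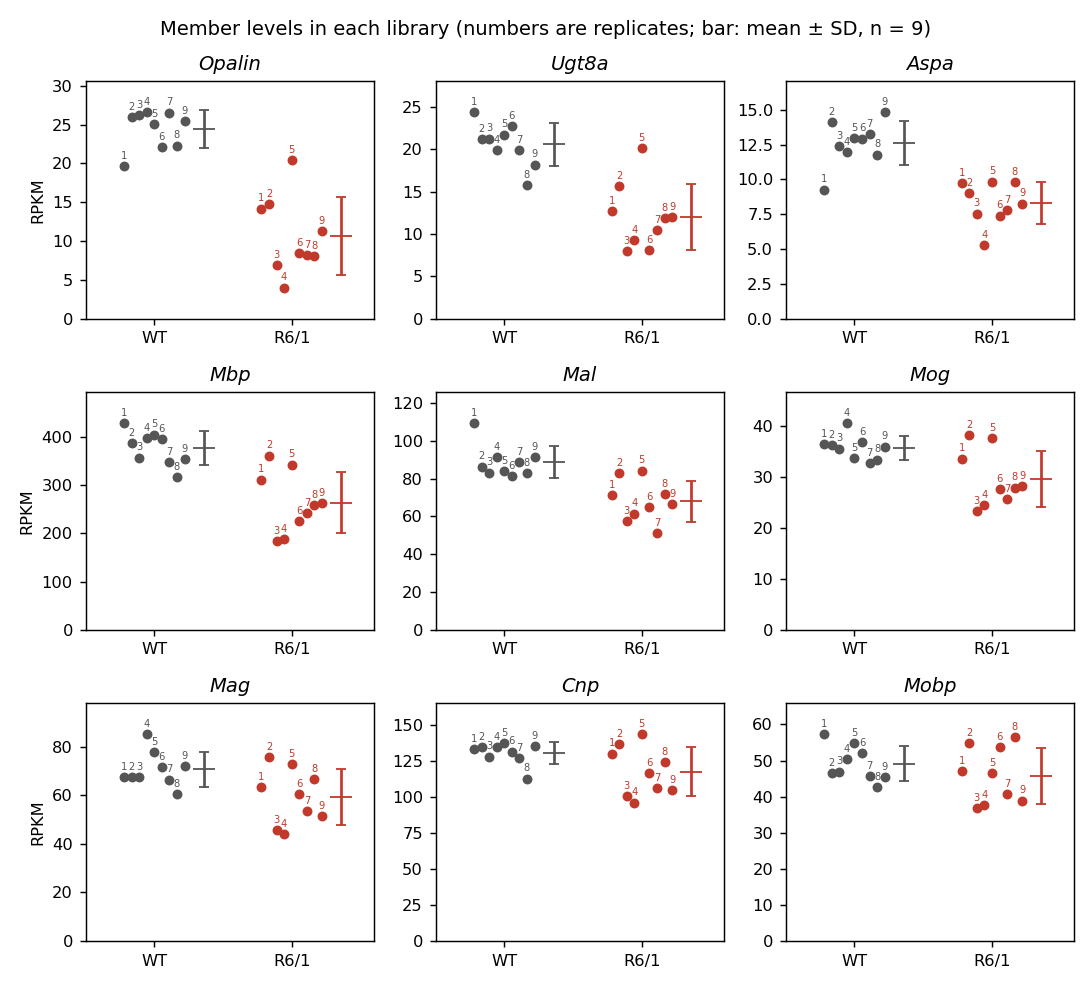
RPKM of each of the 9 genes (y axis, starting at 0) in the 9 WT (grey) and 9 R6/1 (red) libraries, with replicate numbers above the points and bars for mean ± SD. Opalin, Ugt8a and Aspa show most R6/1 points below the WT points (8, 8 and 6 of 9 below the lowest WT library), while the Mobp points of the genotypes lie over each other, with 4 of 9 R6/1 libraries below the lowest WT library.

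The sequences before the start sites of the genes with the largest and the smallest fold changes of the 9 are set side by side here. Each run is the 250 bases that end at the transcription start, read 5′ to 3′ on the gene's strand, from the RefSeq promoter windows of build GRCm38.p6. Capitals mark exact matches, on either strand, to ACAAAG or its reverse complement CTTTGT (a SOX-type motif), and to CTGGCAC (a MYRF-type motif). The runs are at chr19:41077114-41077363 (minus strand) for Opalin, chr3:125938653-125938902 (minus strand) for Ugt8a, chr11:100574689-100574938 (plus strand) for Cnp and chr9:120149492-120149741 (plus strand) for Mobp.
Opalin: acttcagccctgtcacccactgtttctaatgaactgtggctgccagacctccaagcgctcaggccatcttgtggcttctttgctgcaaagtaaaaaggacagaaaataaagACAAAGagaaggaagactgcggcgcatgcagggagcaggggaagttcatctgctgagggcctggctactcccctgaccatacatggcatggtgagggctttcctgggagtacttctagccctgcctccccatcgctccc
Ugt8a: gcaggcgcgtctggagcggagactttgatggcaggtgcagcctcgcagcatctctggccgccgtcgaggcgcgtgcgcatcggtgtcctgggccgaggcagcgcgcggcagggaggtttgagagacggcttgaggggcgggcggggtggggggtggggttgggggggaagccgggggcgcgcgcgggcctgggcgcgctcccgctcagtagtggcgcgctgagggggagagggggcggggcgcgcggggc
Cnp: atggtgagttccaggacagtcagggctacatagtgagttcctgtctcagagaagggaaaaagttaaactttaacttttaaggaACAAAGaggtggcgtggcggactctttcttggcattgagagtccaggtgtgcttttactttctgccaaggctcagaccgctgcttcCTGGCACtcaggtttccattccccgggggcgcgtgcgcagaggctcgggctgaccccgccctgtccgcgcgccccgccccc
Mobp: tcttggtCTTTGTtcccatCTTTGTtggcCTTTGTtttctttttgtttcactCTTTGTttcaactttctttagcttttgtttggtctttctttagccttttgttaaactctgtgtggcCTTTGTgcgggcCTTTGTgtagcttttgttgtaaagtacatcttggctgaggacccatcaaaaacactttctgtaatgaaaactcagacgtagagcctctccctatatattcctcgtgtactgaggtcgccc
The Mobp run held 6 matches to ACAAAG, Opalin and Cnp held 1 each, and Ugt8a held 0. Over the 8 members with a RefSeq window (10 windows, as Mag has 3), ACAAAG was matched before the start of 4 (Cnp, Mag, Mobp and Opalin), and 16.5% of all 32851 windows had a match there. For each motif, members are counted per gene, with a match in any window enough, while the shares are per window. The windows of Mag did not all have a match. CTGGCAC was matched before the start of 2 (Cnp and Mag), beside 4.2% of all windows, and the E-box CAGCTG, which is its own reverse complement, before the start of 1 (Aspa), beside 13.0%. The SOX-type motif ACAATG was matched in 0 of the 8, beside 10.7% of all windows. The Ugt8a run stood apart in base composition, with 76.8% G and C, where the Opalin run had 54.4%, Cnp 57.2%, Mobp 40.8% and the median window 52.4%. Cnp and Mobp, the members that did not pass the test, both had an ACAAAG match, as did Mag and Opalin, and the 4 members with a window and no match before the start (Ugt8a, Aspa, Mal and Mog) were all called lower.

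Among the proteins of compact myelin, Mbp and Mal fell and Mobp did not pass the test. Mbp, on chromosome 18 (chr18:82644538-82755029, plus strand, build NCBIM37), encodes the basic protein that joins the cytoplasmic faces of the myelin membrane. Its RPKM in WT had a lowest value of 317, a median of 387 and a highest value of 429, and in R6/1 184, 258 and 362. All 9 R6/1 libraries lay below the WT median and 7 lay below the lowest WT library, so the genotypes overlapped through 2 R6/1 libraries. The mean fell from 377 ± 34.9 to 264 ± 63.5 RPKM (SD over 9 libraries each). The log2 fold change was -0.54 with a standard error of 0.11 (limma adjusted p = 0.000505).

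Mal (chr2:127458962-127482431, minus strand), a proteolipid of lipid rafts that takes part in sorting myelin membrane, ranged from 81.5 to 109 RPKM in WT with a median of 86.3. In R6/1 it ranged from 51.1 to 84.3 RPKM with a median of 66.4. The ranges met only at the edges: 7 R6/1 libraries were below every WT library, and 5 WT libraries were above every R6/1 library. The mean fell from 88.8 ± 8.55 to 67.9 ± 10.98 RPKM (SD over 9 libraries each), a log2 fold change of -0.39 with a standard error of 0.081 (limma adjusted p = 0.000479).

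Mobp (chr9:120058860-120090602, plus strand), a small basic protein found with Mbp on the cytoplasmic side of compact myelin, ranged from 42.6 to 57.3 RPKM in WT with a median of 46.9. In R6/1 it ranged from 36.8 to 56.5 RPKM with a median of 46.5. The medians were close and the R6/1 range reached further down, with 4 R6/1 libraries below the lowest WT library. The log2 fold change was -0.11 with a 95% interval from -0.29 to 0.07 (limma adjusted p = 0.303), so a fall of the size of Mbp's lies outside the interval and a smaller fall does not.

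Of the surface and non-compact myelin proteins, Opalin, Mog and Mag fell and Cnp did not pass. Opalin (chr19:41136964-41151603, minus strand), a transmembrane glycoprotein of oligodendrocytes in the central nervous system, had a lowest value of 19.7, a median of 25.5 and a highest value of 26.6 RPKM in WT. In R6/1 these were 4.01, 8.41 and 20.4 RPKM. Replicate 5 was the R6/1 library that reached into the WT range, above the lowest WT library (replicate 1). The other 8 R6/1 libraries were at most 14.8 RPKM. The mean fell by 56.3%, from 24.4 ± 2.48 to 10.7 ± 5.01 RPKM (SD over 9 libraries each), which is -1.28 ± 0.20 (standard error) as a log2 fold change (limma adjusted p = 2.97e-05). Reads on Opalin numbered 223 to 382 per WT library and 54 to 262 per R6/1 library.

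Mog (chr17:37147691-37160343, minus strand), an immunoglobulin-family protein on the outermost myelin surface, had a lowest value of 32.7, a median of 36.0 and a highest value of 40.6 RPKM in WT, and of 23.3, 28.0 and 38.2 RPKM in R6/1. R6/1 libraries lay in 2 places: 6 below the lowest WT library and 3 within the WT range. The log2 fold change was -0.28 with a standard error of 0.083 (limma adjusted p = 0.00808). Mag (chr7:31684202-31699851, minus strand), an adhesion molecule of the membrane next to the axon, had values of 60.5, 67.6 and 85.1 RPKM in WT and of 44.0, 60.5 and 75.6 RPKM in R6/1. Its genotypes overlapped more, with 5 R6/1 libraries below the lowest WT library and 2 WT libraries above the highest R6/1 library. The log2 fold change was -0.27 with a standard error of 0.095 (limma adjusted p = 0.0241). This call was the least stable of the 7: without R6/1 replicate 3 the limma adjusted p was 0.0503, and with reads scaled by each library's own total it was 0.0945.

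Cnp (chr11:100436218-100453043, plus strand), a cyclic nucleotide phosphodiesterase of non-compact myelin, ranged from 112.8 to 138 RPKM in WT with a median of 133. In R6/1 it ranged from 96.0 to 144 RPKM with a median of 116. The highest of all 18 libraries was an R6/1 library (replicate 5), and 4 R6/1 libraries were below the lowest WT library. The log2 fold change was -0.16 with a 95% interval from -0.31 to -0.02 before adjustment (limma adjusted p = 0.0600). Without WT replicate 8, the lowest WT library for Cnp, the limma adjusted p was 0.0317. It was also under the threshold without R6/1 replicate 1 (0.0418), 2 (0.0269) or 5 (0.0148), each limma adjusted. Cnp overlaps Dnajc7 on the opposite strand, Mog overlaps a 7SK entry and Mbp the pseudogene Rpl21-ps8 in the same way. The libraries were stranded, and how strand was used in the counting is not given in the sources used here, so reads of the overlapping stretches may be shared.

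Both lipid enzymes fell. Ugt8a (chr3:125568277-125641468, minus strand), the galactosyltransferase that makes galactosylceramide, had a lowest value of 15.8, a median of 21.2 and a highest value of 24.4 RPKM in WT, and of 8.01, 11.9 and 20.1 RPKM in R6/1. As with Opalin, R6/1 replicate 5 alone lay inside the WT range. The mean fell by 41.5%, from 20.6 ± 2.53 to 12.02 ± 3.87 RPKM (SD over 9 libraries each), which is -0.80 ± 0.14 (standard error) as a log2 fold change (limma adjusted p = 7.44e-05).

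Aspa (chr11:73118494-73140309, minus strand), the aspartoacylase, had a lowest value of 9.26, a median of 12.9 and a highest value of 14.8 RPKM in WT, and of 5.25, 8.26 and 9.84 RPKM in R6/1. The overlap came from WT replicate 1, and the other 8 WT libraries were above every R6/1 library. The mean fell by 34.3%, from 12.6 ± 1.59 to 8.29 ± 1.503 RPKM (SD over 9 libraries each), which is -0.59 ± 0.10 (standard error) as a log2 fold change (limma adjusted p = 7.21e-05). WT replicate 1 was also the lowest WT library for Opalin, and it was the highest WT library for Mbp, Mobp, Mal and Ugt8a, so its members did not move together.

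The order of the levels, compared per length, was nearly the same in both genotypes. In WT it ran Mbp, Cnp, Mal, Mag, Mobp, Mog, Opalin, Ugt8a and Aspa, from a mean of 377 to a mean of 12.6 RPKM. Ranges of neighbours overlapped in WT between Mal and Mag and between Opalin and Ugt8a. In R6/1, Ugt8a stood above Opalin in 6 of 9 libraries, while in WT Opalin stood above Ugt8a in 7 of 9. More neighbours overlapped in R6/1, namely Mal with Mag, Mag with Mobp, Mobp with Mog, Ugt8a with Opalin and Opalin with Aspa.

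The R6/1 libraries differed from each other more than the WT libraries did. The SD of the log2 values was larger in R6/1 for 9 of 9 members, with a median SD of 0.14 in WT and 0.27 in R6/1, while 43.1% of all genes tested had the larger SD in R6/1. The members were not alone in this. In the related lists described below, it held for 25 of 26 further myelin genes and 9 of 10 precursor genes. It also held for 7 of 9 lipid genes, 7 of 9 lineage factors, 4 of 5 genes of N-acetylaspartate and 6 of 10 axonal genes. For Opalin the SD in R6/1 was 4.39 times that in WT. The difference in spread was not tested. In R6/1 replicates 3, 4, 7 and 9, all 9 members lay below the lowest WT library. In replicate 5 this held for 0 members, in replicate 2 for 3, in replicate 1 for 4, in replicate 8 for 5 and in replicate 6 for 7. As the median of the 9 members in percent of their WT means, R6/1 replicate 4 was at 62.3%, the lowest library, and replicate 2 was at 96.0%, the highest R6/1 library, next to replicate 5 at 94.9%. Within a library Opalin was the member furthest below its WT mean in 8 of 9 R6/1 libraries, down to 16.4% in replicate 4, and Aspa was so in replicate 5.

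**Figure D2:**
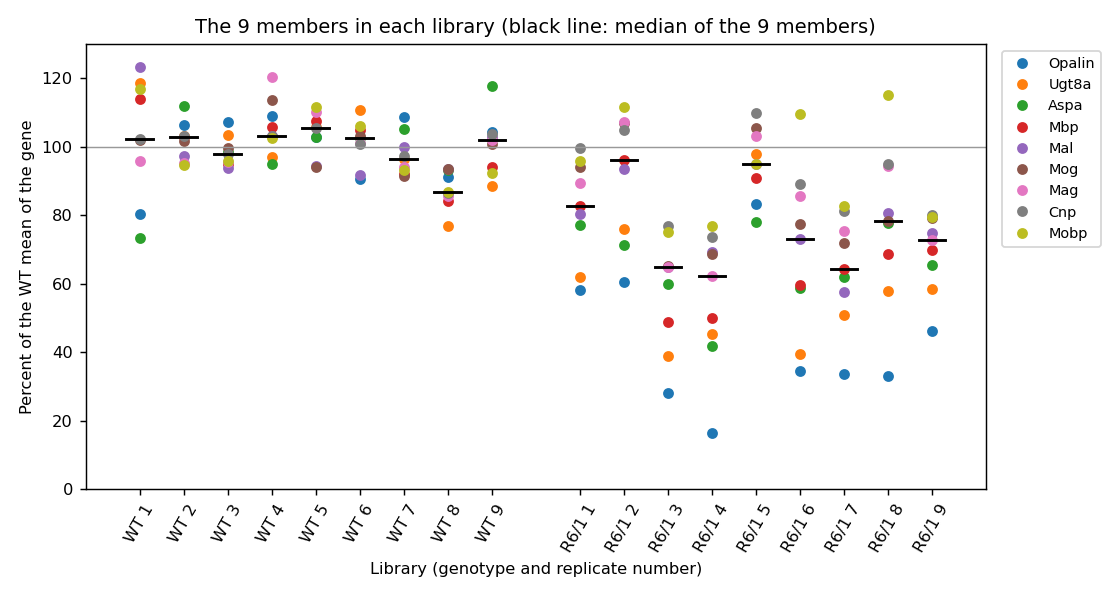
Level of each member in each library as a percentage of the gene's WT mean (y axis), for WT replicates 1 to 9 and R6/1 replicates 1 to 9 (x axis), with a colour per gene and a black line at the median of the 9 members. The black line lies from 86.9% to 105% in WT libraries, and from 62.3% to 96.0% in R6/1 libraries, and Opalin is the lowest point in 8 of 9 R6/1 libraries.

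Members also varied together more in R6/1. Over the 36 pairs of members, the correlation across 9 libraries had a median Pearson r of 0.31 in WT (Spearman 0.33), with 27 pairs above 0, and a median Pearson r of 0.81 in R6/1 (Spearman 0.83), with 36 pairs above 0. These are descriptions across libraries that share dissection and depth, with no test. Levels of other cell types moved with this pattern in part. R6/1 replicate 5, where the members were high, also had the highest R6/1 sums of the astrocyte (1132 RPKM), microglia (129 RPKM) and endothelial (90.5 RPKM) markers. R6/1 replicate 2, with the highest median of the members in R6/1, had the lowest R6/1 astrocyte sum (890 RPKM). Its microglia and endothelial sums were 109 and 80.1 RPKM. Among R6/1 replicates 3, 4, 7 and 9 the choroid plexus sums were 1741, 1024, 39.0 and 55.7 RPKM, both the highest and the lowest of the genotype. The part of these cell types in the spread of the members was not tested.

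Whether the members fell by unequal amounts was tested on the ratio of 2 members within a library, which does not depend on how libraries were scaled. With each member in turn as the reference in limma's fit across all genes, 24 of 36 pairs differed between genotypes (adjusted p under 0.05 with either as reference), and 22 with both. The adjustment is weak in these fits, since between 24.9% and 98.0% of all genes differed from the reference. Of the 2 pairs that passed with a single reference, Mbp and Ugt8a differed by 0.25 with a 95% interval from -0.04 to 0.55 in limma's fit, which includes 0. That fit draws the spread of a pair toward that of all genes against the reference, so its intervals are not those of the pair alone. In an exact permutation test, two-sided and over 48620 assignments of libraries to genotypes, 27 of 36 pairs had an unadjusted p under 0.05 and 17 had a p under 0.00139, which is 0.05 divided by 36. Of the 8 pairs that hold Opalin, 7 were among these 17. For Mbp and Ugt8a the SD of the log2 ratio was 0.090 in WT and 0.18 in R6/1. Their exact permutation p was 0.00247, under 0.05 but not under 0.00139.

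The log2 ratio of Mbp to Mobp fell from 2.93 ± 0.054 to 2.49 ± 0.29 (SD over 9 libraries each), and its values in the genotypes did not overlap (exact permutation p = 4.11e-05, the smallest that this test can give). The log2 ratio of Opalin to Cnp fell from -2.40 ± 0.16 to -3.52 ± 0.50, and that of Mag to Opalin rose from 1.51 ± 0.17 to 2.52 ± 0.47, also with no overlap and the same exact permutation p. Mbp and Mobp are both proteins of compact myelin, and Mag, Opalin and Cnp are all surface or non-compact proteins, so members of a class were among the pairs that differed. Mbp and Aspa, unlike in role and level, had a difference of log2 ratios of 0.04 (95% interval -0.21 to 0.30 in limma's fit; exact permutation p = 0.711). Mobp and Cnp differed by 0.05 (95% interval -0.11 to 0.21 in limma's fit; exact permutation p = 0.424), and Mag and Mog by 0.014 (exact permutation p = 0.802). These p-values do not show that the pairs changed alike, only that a difference beyond the intervals given was not seen.

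**Figure D3:**
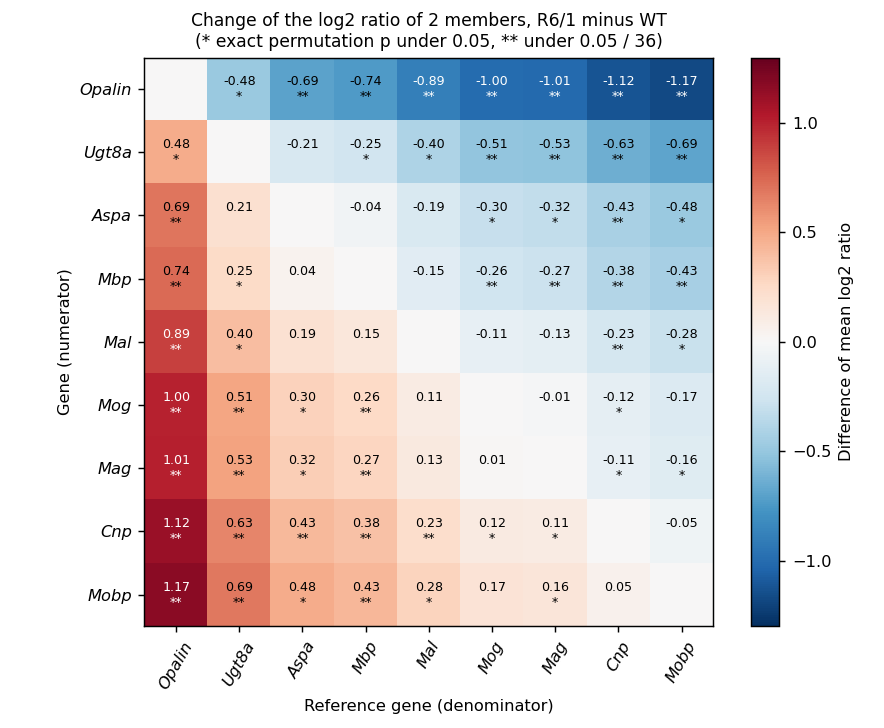
Difference between R6/1 and WT in the mean log2 ratio of 2 members, with the numerator gene in rows and the denominator gene in columns, ordered from the largest to the smallest fall. Blue cells are ratios that were lower in R6/1, 1 star marks an exact permutation p under 0.05 and a pair of stars a p under 0.00139. The Opalin row is blue throughout, down to -1.17 against Mobp.

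The other genes of the pathway, taken from lists written from general knowledge, are given next. Of 26 further myelin and mature oligodendrocyte genes, 13 fell, 2 rose and 11 did not pass, with a median log2 fold change of -0.28. Beside this, 23.5% of all genes tested were called lower and 24.8% higher. Pllp, plasmolipin, fell from 27.2 ± 2.47 to 15.5 ± 3.02 RPKM, and no library of either genotype reached into the other's range (-0.82 on the log2 scale, limma adjusted p = 7.27e-07). Klk6, a secreted protease of oligodendrocytes, fell from 1.48 ± 0.759 to 0.545 ± 0.292 RPKM (-0.87, limma adjusted p = 0.00186). Apod, a lipid-binding apolipoprotein, went against the list and rose from 88.0 ± 11.4 to 182 ± 42.3 RPKM with no overlap (1.02, limma adjusted p = 4.32e-07). All these are means ± SD over 9 libraries per genotype.

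Genes that make and break down myelin lipids were mixed: of 9, 3 fell, 1 rose and 5 did not pass, with a median of -0.21. The share called in either direction was thus near the 48.3% of all genes tested. Fa2h, which hydroxylates the fatty acids of galactolipids, fell by 0.57 on the log2 scale, from 15.4 ± 1.46 to 10.4 ± 2.65 RPKM (limma adjusted p = 0.000295). Gal3st1, which turns galactosylceramide into sulfatide, fell by 0.40 (limma adjusted p = 0.00679), and Scd2, a fatty acid desaturase, fell by 0.27 (limma adjusted p = 0.00137). Arsa, the lysosomal enzyme that degrades sulfatide, rose by 0.20, from 10.1 ± 0.525 to 11.7 ± 0.678 RPKM (limma adjusted p = 0.000456). Other genes of lipid breakdown, Galc, which degrades galactosylceramide, and Psap, which encodes activators of lysosomal lipid hydrolases, had log2 fold changes of -0.01 and 0.10 and did not pass (limma adjusted p = 0.830 and 0.169); they are named after their values were seen.

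Of 9 transcription factors of the oligodendrocyte lineage, 0 fell, 1 rose and 8 did not pass (median -0.03), beside the 23.5% and 24.8% of all genes called lower and higher. The factor that rose was Nkx6-2, a homeobox gene of maturing oligodendrocytes, from 4.14 ± 0.597 to 5.64 ± 1.08 RPKM (0.40 on the log2 scale, limma adjusted p = 0.00267). The values of 6 others are given, chosen after they were seen. Olig1 had a mean of 46.0 ± 4.69 RPKM in WT and 45.8 ± 7.50 in R6/1 (limma adjusted p = 0.874), and Olig2 10.9 ± 1.39 and 10.2 ± 1.68 (limma adjusted p = 0.365). Sox10 had 15.3 ± 2.01 and 15.9 ± 3.18 RPKM (limma adjusted p = 0.767), and Myrf 15.4 ± 0.980 and 17.0 ± 2.46 (limma adjusted p = 0.164). The 95% intervals of their log2 fold changes ran from -0.19 to 0.15 for Olig1, from -0.29 to 0.08 for Olig2, from -0.18 to 0.26 for Sox10 and from -0.03 to 0.28 for Myrf. Wider intervals reached further down, from -0.42 to 0.05 for Nkx2-2 (-0.19, limma adjusted p = 0.185) and from -1.07 to 0.07 for Tcf7l2 (-0.50, limma adjusted p = 0.136). The WT values of Tcf7l2 were uneven, with a median of 1.71 and a highest library at 9.35 RPKM. In R6/1 its median was 1.44 RPKM, so the medians lay closer than the means of 2.96 and 1.65 RPKM. The log2 fold changes of Mag and Mog, -0.27 and -0.28, lie within the intervals of Olig2, Nkx2-2 and Tcf7l2, and a miss of the threshold does not show that these factors did not change.

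Of 10 genes of oligodendrocyte precursors and newly formed oligodendrocytes, 6 fell, 0 rose and 4 did not pass, with a median of -0.25. Of all genes tested, 23.5% were called lower. Gpr17, a receptor of committed precursors, fell from 9.39 ± 0.985 to 6.38 ± 1.66 RPKM (-0.55 on the log2 scale, limma adjusted p = 0.000417). Enpp6, a marker of newly forming oligodendrocytes, fell by 0.36 on the log2 scale (limma adjusted p = 0.0115), and Sox6, a factor of precursors, fell by 0.28 (limma adjusted p = 0.00384). Bcas1, a gene of early myelinating cells, fell by 0.27 with a limma adjusted p of 0.0440, and kept that call in 13 of 33 settings. The count for this list was 2 of 10 when the summed level of thalamus markers entered the fit as a covariate. That is near the 19.4% of all genes tested that this fit called lower.

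Of 5 genes that handle N-acetylaspartate and acetate, the substrate and product of Aspa, 3 fell, 0 rose and 2 did not pass (median -0.33). Among all genes tested, 23.5% were called lower. Nat8l, the enzyme of neurons that makes N-acetylaspartate, fell from 62.7 ± 5.45 to 44.0 ± 2.24 RPKM with no overlap (-0.50 on the log2 scale, limma adjusted p = 5.31e-08). Slc13a3, a carrier that takes up N-acetylaspartate, fell from 6.04 ± 1.04 to 3.40 ± 0.659 RPKM (-0.75, limma adjusted p = 1.48e-05), and Acss2, which activates acetate, fell by 0.33 on the log2 scale (limma adjusted p = 0.000193). Genes for the synthesis, the uptake and the cleavage of N-acetylaspartate were therefore all lower.

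Of 10 genes of the axonal side of myelinated fibres, 5 fell, 1 rose and 4 did not pass (median -0.15). Of all genes tested, 23.5% were called lower and 24.8% higher. The genotypes did not overlap for 2 of the 10, beside 11.9% of all genes tested. Rtn4r, the axonal receptor of the myelin protein Nogo, fell from 38.5 ± 5.21 to 23.3 ± 2.58 RPKM with no overlap (-0.71 on the log2 scale, limma adjusted p = 2.64e-07). Cntnap1, the axonal protein of the paranodal junction, fell from 70.8 ± 4.02 to 57.0 ± 3.29 RPKM, also with no overlap (-0.31, limma adjusted p = 2.36e-06), and Kcna1, a potassium channel next to that junction, fell by 0.37 on the log2 scale (limma adjusted p = 3.35e-05). Nrg1, a growth factor that axons present to myelinating cells, rose from 1.43 ± 0.288 to 2.06 ± 0.537 RPKM (0.39, limma adjusted p = 0.00962). With the thalamus markers as a covariate, Klk6, Enpp6, Sox6 and Nrg1 did not pass, with the direction kept and larger standard errors. Their log2 fold changes and standard errors in that fit were -0.56 ± 0.24 for Klk6, -0.23 ± 0.13 for Enpp6, -0.24 ± 0.095 for Sox6 and 0.28 ± 0.15 for Nrg1 (limma adjusted p = 0.0752, 0.187, 0.0506 and 0.145), beside standard errors of 0.21, 0.11, 0.075 and 0.12 without the covariate.

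**Figure D4:**
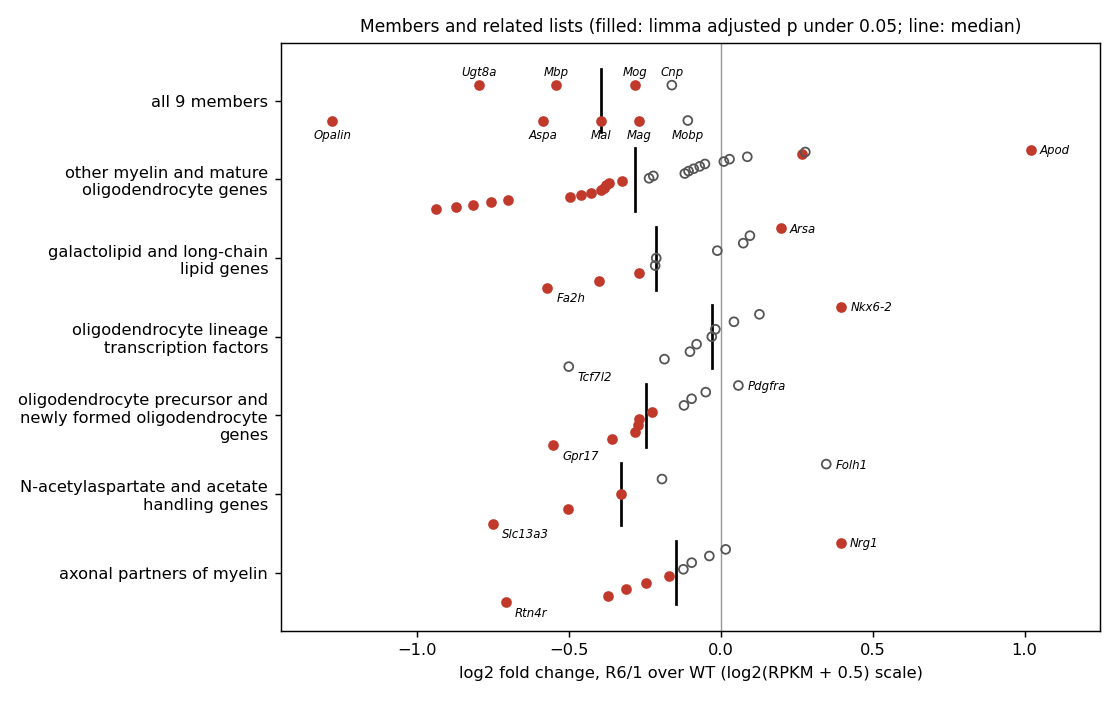
log2 fold change of each gene, R6/1 over WT (x axis), for the 9 members and 6 related lists (rows), with filled red points for genes with a limma adjusted p under 0.05, open points for the rest and a black line at the list's median. The medians lie at -0.39 for the members and between -0.33 and -0.03 for the related lists, with Opalin at -1.28 and Apod at 1.02 as the ends.

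Markers of other cell types were measured beside these lists, with 23.5% of all genes tested called lower and 24.8% higher. Of 8 astrocyte markers 6 fell and 1 rose (median -0.45), with a summed level of 1105 to 1450 RPKM in WT and 890 to 1132 in R6/1. Of 7 microglia markers 4 fell and 0 rose (median -0.40; 100 to 146 and 79.7 to 129 RPKM). All 7 pan-neuronal markers fell (median -0.31; 2282 to 2742 and 1792 to 2019 RPKM). Most markers of the other glia, and those of neurons, were thus lower in R6/1 as well. Of 6 endothelial markers 1 fell and 0 rose (median -0.11; 53.2 to 88.9 and 61.1 to 90.5 RPKM), and of 6 choroid plexus markers 0 fell and 0 rose (median 0.07). Of 7 thalamus markers 5 fell and 0 rose (median -0.64). The single tested Schwann cell marker of 5 listed, Egr2, fell, at a summed list level of 1.21 to 4.74 RPKM in WT and 0.433 to 1.41 in R6/1. Egr2 itself had a mean of 1.92 ± 1.40 RPKM in WT and 0.512 ± 0.279 in R6/1 (SD over 9 libraries each). The others were under the minimum for a test, so the sum follows Egr2 and does not measure Schwann cells. None of these lists had a marker at 0 in all libraries. With the thalamus markers as a covariate 6 of the 9 members were lower, with the choroid plexus markers 7, and 7 without WT replicate 6. These fits called 19.4%, 23.7% and 23.3% of all genes tested lower. The part of the other lists in the fall of the members was not tested.

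Among all other tested genes, those that varied most like the 9 members from library to library, after the mean of each genotype was taken off, were Ttyh2 (r = 0.95 with the mean of the standardised members over 18 libraries), Tmbim1 (0.95), Fa2h (0.93), Bcas1 (0.93) and Unc5b (0.92). Within R6/1 these r were between 0.95 and 0.98, and within WT between 0.50 and 0.86. Their differences between genotypes were unequal: on the log2 scale Unc5b fell by 0.67 (limma adjusted p = 4.43e-05) and Tmbim1 by 0.22 (limma adjusted p = 0.0194), while Ttyh2 differed by -0.12 and did not pass (limma adjusted p = 0.359). An r over 0.5 was found for 6.46% of the 14437 other tested genes. Among the lists it was found for 23 of 26 further myelin genes, 5 of 9 lipid genes, 5 of 9 lineage factors, 3 of 10 precursor genes, 1 of 10 axonal genes and 0 of 5 genes of N-acetylaspartate. Of other cell types it was found for 5 of 7 microglia, 3 of 6 endothelial, 1 of 8 astrocyte and 1 of 7 pan-neuronal markers, and for 0 choroid plexus, thalamus and Schwann cell markers. For those 5 microglia markers r lay between -0.15 and 0.14 within WT and between 0.71 and 0.90 within R6/1. Apod, the gene that rose most in the myelin list, had an r of -0.28 over all libraries, with 0.74 within WT and -0.45 within R6/1.

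Lamin B1, a protein of the lamina under the nuclear envelope, binds long stretches of chromatin, and the question asked of the deposited domains was where the 9 genes lie. The start of 1 of the 9, Ugt8a, lay in a domain, in WT (chr3:123099001-126281000) and in R6/1 (chr3:123284001-126355000). Of the 12827 tested genes placed on NCBIM37, 13.0% had their start in a WT domain and 7.99% in an R6/1 domain. Mog lay 0.062 Mb from a WT domain and 0.099 Mb from an R6/1 domain. Aspa lay 8692 bases from an R6/1 domain (chr11:73149001-74185000), where the nearest WT domain was 17.4 Mb away, and Mag lay 2.155 Mb from the nearest WT domain and 0.268 Mb from the nearest R6/1 domain. The other 5 genes were between 0.859 and 25.7 Mb from the nearest domain of either genotype. With 1 list per genotype, these distances have no replicate spread and were not tested.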

How the data were processed

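RNA-seq libraries (9 per genotype) came from frozen hippocampus with RIN 9 to 10 and a stranded mRNA kit, per the labels' protocols. The authors deposited RPKM per gene symbol; the submitters' processing notes name TopHat, DESeq2 and build mm9, without versions. The authors' deposited table gives a mean normalized count (a signal scaled by size factors), and, for the comparison, a log2 fold change with its raw and adjusted p-values. RPKM times mean normalized count over mean RPKM gave normalized counts. These were divided by a step for each library (0.844 to 1.25), chosen so that most values came out whole. After this division, 99.89% to 99.92% of values lay within 0.05 of a whole read. The deposited lamin B1 domains carry the authors' score, 1 list per genotype, which served only for ranking within that list. ATAC-seq was not analysed here, and 0 columns of sample values were left unused.

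Each gene with a mean of at least 0.5 RPKM was tested with limma 3.58.1 (R 4.3.3; lmFit and eBayes with trend, two-sided) on log2(RPKM + 0.5), with Benjamini-Hochberg adjustment over 14446 genes and a threshold of 0.05. On simulated data (14447 genes tested, 50 changed at each size) the R6/1 against WT test recovered 38% of changes of 0.3, 90% of 0.6 and 100% of 1 and 2 on the log2 scale, and 4.65% of its calls were false. The simulation gave all genes the same dispersion in both genotypes and changed few of them. The members had a median SD of 0.14 in WT and 0.27 in R6/1, so these shares need not hold for them. Exact permutation tests used scipy 1.17.1 and numpy 2.4.6. Positions are from GENCODE on NCBIM37, promoter windows from RefSeq on GRCm38.p6. No chromosome 18 sequence is shown.

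The members and lists were chosen with earlier results of these data known. Named genes are the 9 members, up to 4 called genes of largest absolute log2 fold change per related list, and the 5 genes most alike; some results are not reported here, and others are named as chosen after their values were seen. Alternatives were other pseudocounts (0.1 and 1), filters, scalings, voom on recovered reads, library weights, limma without trend, an Xist covariate, a replicate block and leaving out each library; the covariates for choroid plexus and thalamus markers and the permutation test of ratios were added after seeing the data. P-values measure the spread between these libraries.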

Additional observations from a re-analysis of the deposited data

Results flagged for a closer look

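Over 56 sets of 9 libraries (28 genes in each genotype), 3 had a library far from the others by Dixon's criterion, where chance gives about 2.8. Mal in WT replicate 1 was at 109.4 RPKM, with the next library at 91.55. WT replicate 8 was the low library in the other 2: Cnp at 112.8 RPKM (next 127.0) and Acss2 at 11.5 RPKM (next 13.59). WT replicate 8 was the lowest WT library for 5 of the 9 members and among the lowest 3 for all 9, with a median of 86.9% of the WT means.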

How the results depend on the processing

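Over 33 settings, Mbp, Mal, Mog, Opalin, Ugt8a and Aspa were lower in every setting, Mobp passed in 0 (limma adjusted p 0.146 to 0.739), Mag in 28 and Cnp in 6; 6 to 8 members were called lower. Mag did not pass after quantile normalization (-0.23, limma adjusted p = 0.0523), scaling by own total of reads (-0.20, 0.0945), voom on recovered reads (-0.20, 0.0843) and, added later, the thalamus covariate (-0.27, 0.0846). Cnp passed with library weights (-0.17, limma adjusted p = 0.0376). With each library left out in turn, log2 fold changes ranged from -0.32 to -0.22 for Mag and from -0.20 to -0.13 for Cnp, and the related genes called higher from 5 to 8 (8 without R6/1 replicate 4). These numbered 9 with own totals and 8 with voom, against 5. Member pairs that differed numbered 18 to 27. Scaling by own totals moved the median of all genes to 0.07 and the share of calls that were lower from 48.6% to 33.1% (quantile 41.7%, voom 33.1%). Using only the higher-scored domains (those at or above the median score), 0 members lay in a domain of either genotype. The causes of these shifts were not tested.

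Replicate numbers are shared between genotypes, and correlations of same-numbered libraries (-0.05 to 0.24, 3 of 9 over 0.1; 2 of 9 libraries correlated best with their own number) do not show that they pair the samples. With the replicate block, 8 members were lower, as Cnp passed (-0.16, limma adjusted p = 0.0496); the other members kept their calls.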

Other observations

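Genes of the further myelin list that the text has not described were looked at after their values were seen. Among the connexins of oligodendrocytes, which form gap junctions within myelin and with astrocytes, Gjc3 fell by 0.38 on the log2 scale (limma adjusted p = 0.000245), while Gjb1 had -0.07 (limma adjusted p = 0.663). Car2, the carbonic anhydrase of oligodendrocytes, fell by 0.76 (limma adjusted p = 1.17e-05), and Tspan2, a tetraspanin of myelin, fell by 0.43 with no overlap between genotypes (limma adjusted p = 7.49e-06). Cntn2, an adhesion protein of axons and glia beside the paranode, was the other gene of this list that rose, by 0.27 (limma adjusted p = 0.000560).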
